A study of Homo sapiens with 6 samples.

Results

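The α-catenins and vinculin are the proteins that tie cell adhesion to the actin cytoskeleton. They were read here on every probe set that the platform annotation gives to exactly 1 of 5 genes, CTNNA1, CTNNA2, CTNNA3, CTNNAL1 and VCL. That gave 13 of the 54675 probe sets on the array: 5 for CTNNA1, 4 for CTNNA3, 2 for VCL and 1 each for CTNNA2 and CTNNAL1. A probe set is a group of short oligonucleotides whose signals are combined into 1 value. No probe set listed one of the 5 genes together with another gene (0 such sets), so all 13 were kept, with no filter on dim values.

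The samples were 2 subclones of the human colorectal cancer cell line DLD-1, DLD-1Δα-Cat and DLD-1α-Cat by their labels, with 3 samples of each. What Δα-Cat stands for and how either subclone was derived are not spelled out in the labels used here. All 6 samples were untreated cells kept for 96 h in a gel of type I collagen at 1 mg/ml, and 1 array was run per sample. Whether a subclone's 3 samples were cultured apart is not stated. Every p-value here therefore covers only the spread between these arrays, and that spread may be technical. Since each subclone is a single line, the comparison is between those lines, and fewer cells with a transcript cannot be told apart from less of it per cell.

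At an adherens junction, the cytoplasmic tail of a cadherin holds β-catenin or plakoglobin, and α-catenin binds these and actin filaments. Under tension α-catenin unfolds and recruits vinculin, which adds further links to actin. Vinculin also works at focal adhesions, where it binds talin under the integrins. CTNNA1 encodes αE-catenin, the form of epithelia. CTNNA2 encodes αN-catenin, found mainly in the nervous system, and CTNNA3 encodes αT-catenin, known from heart muscle and testis. CTNNAL1 encodes α-catulin, a relative of α-catenin and vinculin that has been tied to NF-κB signalling.

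The promoters of the 3 genes that were bright on the array are given first, as a description. Whether their letters bear on any difference between the subclones was not tested. Each window runs from 250 bases before to 50 bases after a transcription start of RefSeq (GRCh38.p14), 5′ to 3′ on the gene's strand. Capitals mark the GC box, the letters GGGCGG on either strand, where matches may overlap.
CTNNA1 at chr5:138753175-138753474, plus strand: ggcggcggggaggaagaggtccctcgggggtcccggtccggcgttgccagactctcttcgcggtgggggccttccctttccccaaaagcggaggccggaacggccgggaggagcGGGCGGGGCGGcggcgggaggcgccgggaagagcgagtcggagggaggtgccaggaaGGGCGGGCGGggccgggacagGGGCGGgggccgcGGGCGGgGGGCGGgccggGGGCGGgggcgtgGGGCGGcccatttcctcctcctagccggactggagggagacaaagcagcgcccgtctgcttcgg
CTNNAL1 at chr9:109013450-109013749, minus strand: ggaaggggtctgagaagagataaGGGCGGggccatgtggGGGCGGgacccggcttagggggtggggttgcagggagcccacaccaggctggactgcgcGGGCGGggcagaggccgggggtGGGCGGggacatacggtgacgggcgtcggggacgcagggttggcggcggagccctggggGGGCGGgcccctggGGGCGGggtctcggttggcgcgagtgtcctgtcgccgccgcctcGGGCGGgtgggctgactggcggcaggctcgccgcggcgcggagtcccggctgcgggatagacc
VCL at chr10:73997866-73998165, plus strand: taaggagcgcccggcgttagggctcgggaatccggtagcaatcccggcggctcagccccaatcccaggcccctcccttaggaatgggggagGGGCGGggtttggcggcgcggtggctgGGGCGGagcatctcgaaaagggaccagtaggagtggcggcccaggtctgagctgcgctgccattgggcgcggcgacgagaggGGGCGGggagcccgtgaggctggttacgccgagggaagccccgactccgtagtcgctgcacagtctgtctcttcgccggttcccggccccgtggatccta

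These 3 windows were rich in G and C, with 77.7% for CTNNA1, 76.7% for CTNNAL1 and 69.3% for VCL, against a median of 58.7% over all 35116 promoter windows of the same length. In that order they held 9, 7 and 3 matches to the GC box, which 45.0% of all windows hold at least once. The number of matches per window was not counted over all windows, so these counts have no background. The ratio of observed to expected CpG dinucleotides was 0.892, 0.846 and 0.850, against a median of 0.579. A CCAAT box, the letters CCAAT on either strand, was matched 2 times in the VCL window and 0 times in the other 2, and 34.6% of all windows have one. None of the 3 held a TATA box (TATAAA on either strand, in 11.5% of all windows), the E-box CACCTG on either strand (20.6%) or a CArG box, the site of serum response factor (1.29%). RefSeq lists 4 start sites for CTNNA1. A second lies close to the first, with 74.7% G and C, 4 GC boxes and 1 CCAAT box. Another pair lies inside the gene, with 42.3% and 44.7% G and C and 0 GC boxes, and one of them holds 1 CCAAT box, the other 1 TATA box. For CTNNA3 the 2 windows had 40.7% and 40.3% G and C and 0 GC boxes each. The 4 windows of CTNNA2 ranged from 31.3% to 80.0%, and the one at 80.0% held 3 GC boxes, as many as that of VCL. Such matches describe letters only, and which start sites these cells used was not measured.

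CTNNA1 RNA was lower in DLD-1Δα-Cat on 4 of its 5 probe sets. On the brightest, the log2 intensities were 11.38, 11.30 and 11.01 in DLD-1Δα-Cat replicates 1, 2 and 3, against 12.73, 12.74 and 12.79 in DLD-1α-Cat. All 3 DLD-1Δα-Cat arrays lay below all 3 DLD-1α-Cat arrays, with a gap of 1.35 between the nearest of them. The mean was 11.23 ± 0.193 for DLD-1Δα-Cat and 12.75 ± 0.0324 for DLD-1α-Cat (SD, n = 3 each). In the comparison of 19775 genes, each read on its brightest probe set, the difference was -1.52 (SE 0.119, 95% interval -1.80 to -1.24, limma adjusted p = 0.000838). Differences are given on the log2 scale, with DLD-1α-Cat subtracted from DLD-1Δα-Cat. Signal in DLD-1Δα-Cat was thus 34.8% of that in DLD-1α-Cat (95% interval 28.7% to 42.2%), and CTNNA1 ranked 42 among all genes, counted from the lowest difference up. It still lay at percentile 89.8 of all probe sets, against percentile 96.8 in DLD-1α-Cat, so CTNNA1 was well above the dim range in both subclones.

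A sign of RNA quality separated the same groups. For β-actin, the 3′ control probe set over the 5′ one gave log2 ratios of 5.16, 5.38 and 5.07 in DLD-1Δα-Cat, against 4.82, 4.89 and 4.36 in DLD-1α-Cat. These ranges did not overlap, and the exact two-sided permutation test gave p = 0.1, the smallest that 3 against 3 arrays allow. With this ratio as a covariate the CTNNA1 difference was -1.56, with limma adjusted p = 0.0667, in a fit that called 58 genes higher and 26 lower, where the fit without it called 760 and 331. The GAPDH ratio overlapped between the subclones, from 0.69 to 0.82 in DLD-1Δα-Cat and from 0.51 to 0.79 in DLD-1α-Cat.

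Of the other CTNNA1 probe sets, 3 were called as well, of which the dimmest has a size that is less certain. On the second brightest the values were 11.35, 11.26 and 11.00 in DLD-1Δα-Cat, against 12.72, 12.72 and 12.73 in DLD-1α-Cat. On the third brightest they were 9.56, 9.52 and 9.26 in DLD-1Δα-Cat, against 10.96, 11.01 and 11.07 in DLD-1α-Cat. Both sets separated the subclones fully. The fourth in brightness was far dimmer, at 5.42, 5.07 and 4.83 in DLD-1Δα-Cat and at 6.23, 6.66 and 7.06 in DLD-1α-Cat. Its groups did not overlap either, with a gap of 0.81, but its DLD-1Δα-Cat arrays, at percentile 36.8, were as dim as sets not told from background here. In a fit of all 54613 probe sets that are not controls, the differences of these 4 sets lay between -1.56 and -1.52, with limma adjusted p = 0.00190, 0.00170, 0.00146 and 0.0217 from the brightest to the fourth. The call of the fourth was the least firm. The β-actin ratio as a covariate removed it (difference -1.13, adjusted p = 0.619), as did a fit without moderation (adjusted p = 0.19). With replicate numbers as a block it was lost (adjusted p = 0.0670), and without replicate 2 or 3 of DLD-1Δα-Cat or replicate 3 of DLD-1α-Cat, where adjusted p lay between 0.0776 and 0.0851.

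Within DLD-1Δα-Cat, replicate 3 was the lowest array on all 4 of these sets, by 0.18 to 0.28 below the group mean, and replicate 1 the highest on all 4. The spread of DLD-1Δα-Cat was larger than that of DLD-1α-Cat on the 3 brighter sets, with an SD of 0.182 for DLD-1Δα-Cat against 0.00540 for DLD-1α-Cat on the second brightest. On the fourth the SD was 0.299 for DLD-1Δα-Cat against 0.416 for DLD-1α-Cat. These sets read the same gene on the same arrays, so they are not independent measurements, and both of the brightest carry the suffix x_at, by which Affymetrix marks sets with probes that may also match other sequences. The third brightest, which carries the suffix s_at instead, gave the same size of difference. Whether its probes match other sequences was not tested. The dimmest CTNNA1 set did not differ beyond its spread: it stood at 4.80, 4.34 and 4.66 in DLD-1Δα-Cat and at 4.80, 4.43 and 4.59 in DLD-1α-Cat. Its difference was -0.0056 (95% interval -0.38 to 0.37, limma adjusted p = 0.991). Near percentile 30, at 29.8 in DLD-1Δα-Cat against 29.3 in DLD-1α-Cat, this set lay in the dim part of the scale. Which part of the transcript each set reads is not in the tables used here, so whether the 5 sets see different transcripts was not tested.

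**Figure D1:**
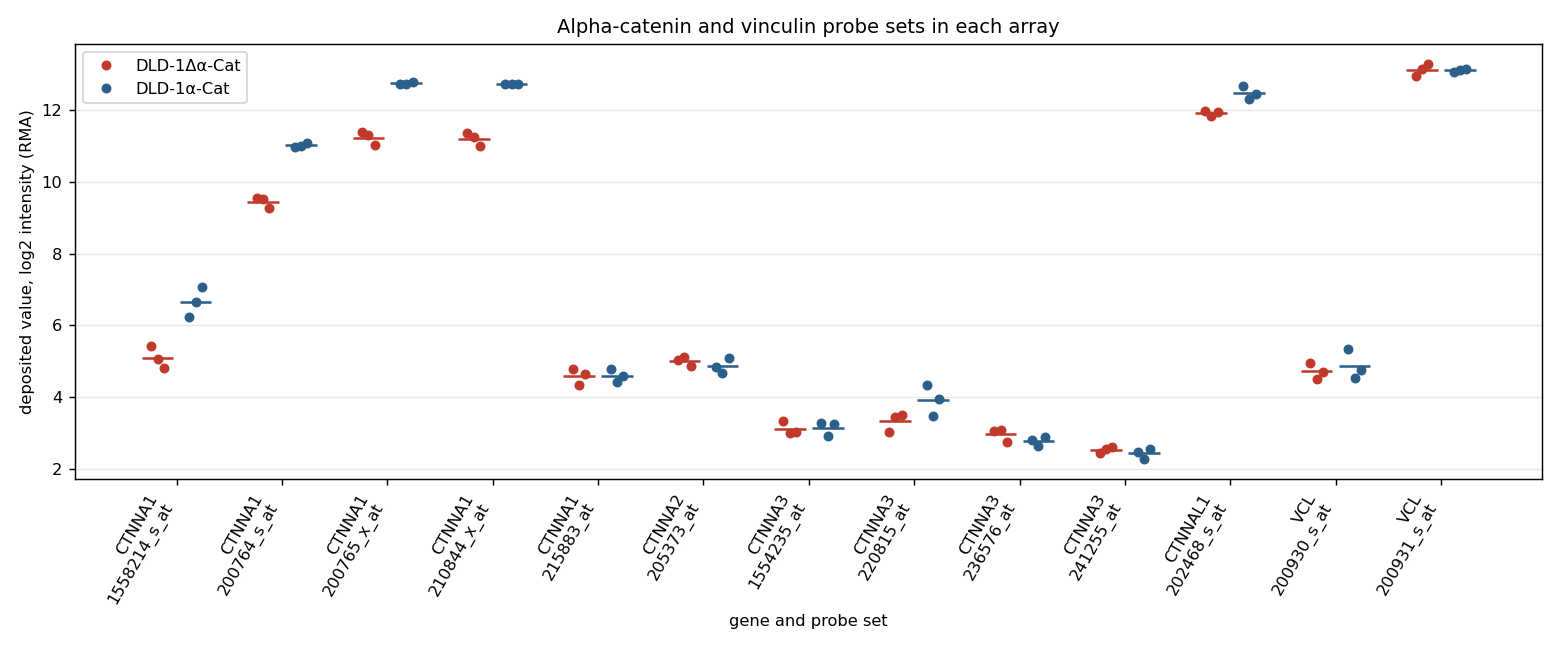
Deposited log2 intensity (vertical axis) of the 13 probe sets of CTNNA1, CTNNA2, CTNNA3, CTNNAL1 and VCL, with DLD-1Δα-Cat (red) left of DLD-1α-Cat (blue). Points are single arrays in replicate order and lines are means (n = 3 each). The subclones are apart on 4 CTNNA1 sets and on the CTNNAL1 set, and overlap on the other 8.

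CTNNAL1 RNA was also lower in DLD-1Δα-Cat, by less. Its single probe set read 11.96, 11.84 and 11.95 in DLD-1Δα-Cat, against 12.65, 12.31 and 12.44 in DLD-1α-Cat. The groups did not overlap, with a gap of 0.35. The mean was 11.92 ± 0.0679 for DLD-1Δα-Cat and 12.47 ± 0.172 for DLD-1α-Cat (SD, n = 3 each), a difference of -0.55 (SE 0.116, 95% interval -0.82 to -0.28, limma adjusted p = 0.0386 over genes). Signal in DLD-1Δα-Cat was 68.1% of that in DLD-1α-Cat (95% interval 56.5% to 82.2%). The call sat near the threshold. Over all probe sets the adjusted p was 0.0704, and over genes it held in 1 of the 6 fits that left out an array, the one without replicate 2 of DLD-1α-Cat (adjusted p = 0.0333). It was lost without replicate 1, 2 or 3 of DLD-1Δα-Cat and without replicate 1 or 3 of DLD-1α-Cat, with differences from -0.58 to -0.46 and adjusted p from 0.0684 to 0.149. With the β-actin ratio as a covariate the difference was -0.51 and the adjusted p 0.545.

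VCL RNA was bright and close to level between the subclones. On the brighter of its 2 sets it stood at 12.94, 13.14 and 13.29 in DLD-1Δα-Cat, against 13.07, 13.11 and 13.14 in DLD-1α-Cat. The DLD-1α-Cat arrays lay inside the range of the DLD-1Δα-Cat arrays. The difference was 0.018 (SE 0.113, limma adjusted p = 0.942 over genes), and its 95% interval, -0.25 to 0.28, spans 84.3% to 122% of the DLD-1α-Cat signal. Any difference inside that range fits these arrays. The other VCL set was dim and overlapped as well, with 4.95, 4.52 and 4.71 in DLD-1Δα-Cat and 5.36, 4.53 and 4.76 in DLD-1α-Cat (difference -0.15, limma adjusted p = 0.779 over probe sets).

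Setting the members against VCL on the same array gives the change free of a shift in scale between arrays. The log2 distance of CTNNA1 from VCL, an offset with no meaning of its own because the probes differ, was -1.56, -1.85 and -2.27 in DLD-1Δα-Cat and -0.34, -0.38 and -0.35 in DLD-1α-Cat. It changed by -1.54. That of CTNNAL1 was -0.98, -1.31 and -1.34 in DLD-1Δα-Cat, against -0.42, -0.80 and -0.69 in DLD-1α-Cat, a change of -0.57. Neither pair of groups overlapped. Both changes follow by subtraction from the differences given above, with VCL close to level, so they add no independent support.

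The α-catenins of nerve and heart were dim in both subclones. CTNNA2 read 5.03, 5.11 and 4.88 in DLD-1Δα-Cat and 4.86, 4.67 and 5.09 in DLD-1α-Cat, at percentile 35.3 of all probe sets in DLD-1Δα-Cat and percentile 33.0 in DLD-1α-Cat. The groups overlapped, and the difference was 0.13 (95% interval -0.18 to 0.45, limma adjusted p = 0.601 over genes). The 4 CTNNA3 sets lay between 2.28 and 4.34 on all arrays. The brightest of them read 3.03, 3.44 and 3.51 in DLD-1Δα-Cat, against 4.34, 3.47 and 3.94 in DLD-1α-Cat, so the groups overlapped narrowly, by 0.032. Its difference of -0.59 had an unadjusted p of 0.0354 and a limma adjusted p of 0.202 over genes. The other 3 sets differed by -0.028, 0.19 and 0.10, with limma adjusted p from 0.546 to 0.947 over probe sets. No level of CTNNA2 or CTNNA3 in either subclone can be told from background here, since no detection calls were used. Neither gene was called as higher in the subclone with less CTNNA1 signal.

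Counted together, 2 of the 5 genes were lower (CTNNA1 and CTNNAL1) and 0 were higher, by limma with Benjamini-Hochberg adjustment, and 3 of 5 lay at an unadjusted p under 0.05, all lower, as did 20.8% of all genes in either direction. Of all genes, 5.52% were called, 1.67% as lower and 3.84% as higher. With every probe set tested, 4 of the 13 were lower, all of them of CTNNA1. The CTNNAL1 set passed there as well with array weights (adjusted p = 0.0355), with a variance trend and robust estimation (0.0120) and without dim probe sets (0.0398). Over all probe sets 2.45% were called, and 0.729% as lower. For 5 of the 13 sets no array of one subclone fell in the range of the other, against 22.1% of all probe sets. The 4 CTNNA1 sets follow 1 gene and count as 1 observation in these shares. The median difference of the 5 genes was -0.55, against -0.030 over all genes.

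**Figure D2:**
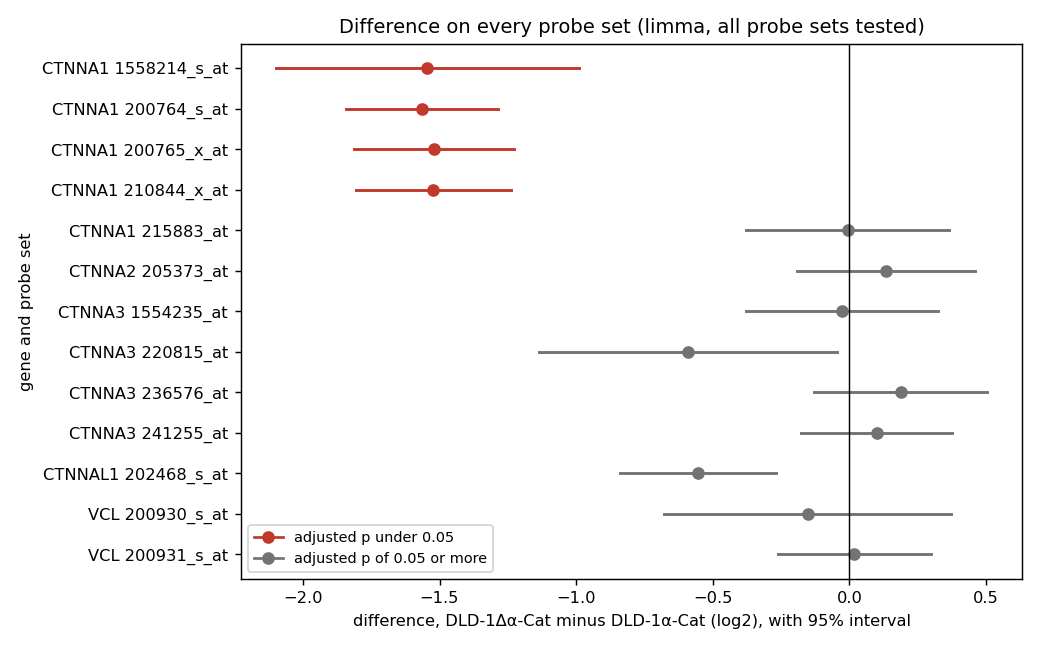
Difference of each probe set (horizontal axis, DLD-1Δα-Cat minus DLD-1α-Cat, log2) with its 95% interval from limma over all probe sets, n = 3 each; red marks adjusted p under 0.05. The 4 called CTNNA1 sets lie between -1.56 and -1.52, and the intervals of CTNNA2 and of both VCL sets cross 0.

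**Figure D3:**
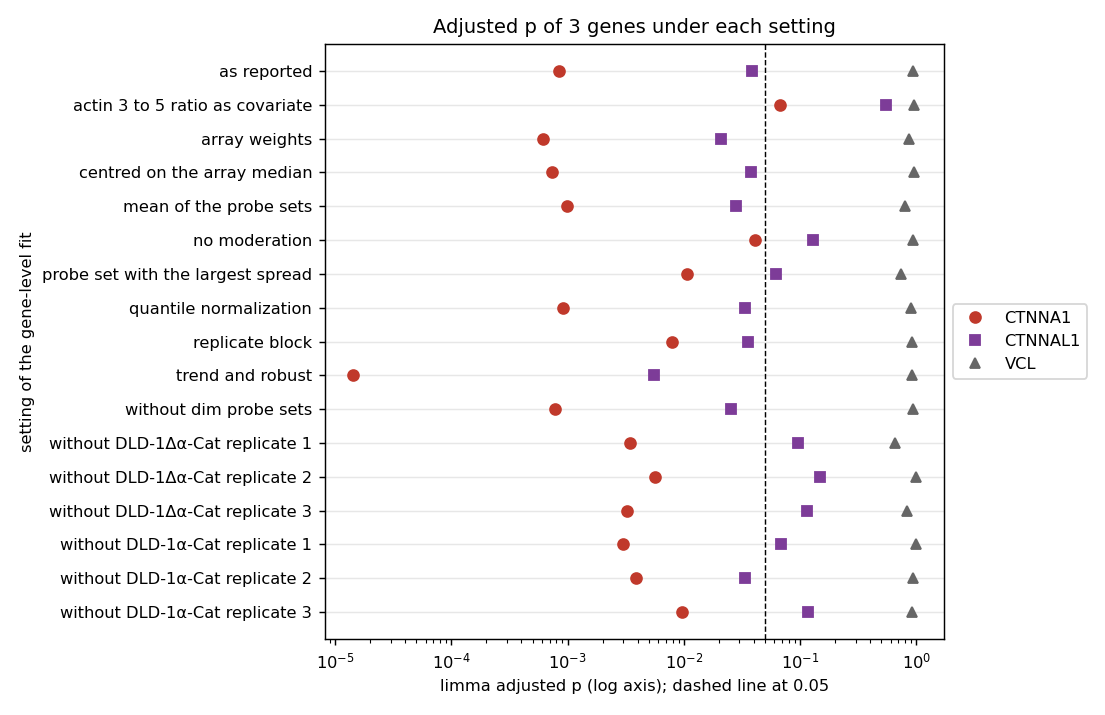
Limma adjusted p (horizontal, log axis) of CTNNA1, CTNNAL1 and VCL in the gene-level fit as reported and under each other setting (vertical axis), with a dashed line at 0.05. CTNNA1 lies above 0.05 in 1 setting, the β-actin covariate (0.0667), while CTNNAL1 crosses the line in 8 and VCL stays to the right of it throughout.

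Among 52 other measured genes of the linkage, 2 were called, a share near the 5.52% of all genes. On the cadherin and β-catenin side, 0 of 10 measured genes passed (limma, adjusted over all genes), and 1 lay at an unadjusted p under 0.05, against 20.8% of all genes. That gene was CDH2, N-cadherin, at 10.59, 10.76 and 10.32 in DLD-1Δα-Cat against 9.59, 10.07 and 10.01 in DLD-1α-Cat (difference 0.67, adjusted p = 0.0683). All 3 of its DLD-1Δα-Cat arrays lay above those of DLD-1α-Cat. CDH2 was called with a variance trend and robust estimation (limma adjusted p = 0.0272). The mean of its probe sets differed by less, 0.39, and was not called (limma adjusted p = 0.0864). Differences in this list ran from -0.25 to 0.67, with a median of -0.069. CTNND1, p120-catenin, has no probe set of its own in the annotation.

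Among partners of α-catenin on actin, such as the actin-binding EPLIN (LIMA1), afadin, zonula occludens proteins and α-actinins, 1 of 22 was higher and 0 lower, with a median of 0.049, and 13.6% lay at an unadjusted p under 0.05 (2 higher, 1 lower). The gene was NECTIN3, a nectin that afadin links to α-catenin, at 9.93, 9.86 and 9.87 in DLD-1Δα-Cat and at 3.97, 4.39 and 4.19 in DLD-1α-Cat. The arrays were far apart (difference 5.70, SE 0.124, limma adjusted p = 2.38e-06), but in DLD-1α-Cat the gene was dim and not shown to be above background, so the size of the difference depends on the array's floor. Among partners of vinculin at focal adhesions, which include talins, paxillin and kindlins, 1 of 16 was higher and 0 lower, with a median of -0.0038, and 25.0% lay at an unadjusted p under 0.05 (2 higher, 2 lower). This was FERMT2, kindlin-2, an activator of integrins, at 8.33, 7.85 and 7.60 in DLD-1Δα-Cat and at 4.07, 4.68 and 6.0 in DLD-1α-Cat. Its DLD-1α-Cat arrays were spread widely, and all lay lower (difference 3.01, SE 0.456, limma adjusted p = 0.0123). They were dim as well, all below the median of all probe sets, so this size too depends on the floor. The mean of the FERMT2 probe sets differed by 1.20 (adjusted p = 0.00607), and with the β-actin ratio as a covariate or without moderation the call was lost (adjusted p = 0.0691 and 0.138). None of the 4 partners of α-catulin was called, and 0 lay at an unadjusted p under 0.05. The most different was the NF-κB kinase subunit IKBKB (0.29, 95% interval -0.11 to 0.69).

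The labelled colon origin was checked on marker genes. All 9 colon epithelium markers, among them EPCAM, KRT8, KRT18, CDX2 and CDH17, had mean levels above the median of all genes, and 0 were called (limma; 0 at an unadjusted p under 0.05). The most different was the intestinal galectin LGALS4, at -0.49. Of 10 neuron markers, 8 lay below that median; 1 was higher and 0 were lower, against 5.52% called over all genes, and at an unadjusted p under 0.05 the counts were 1 higher and 1 lower. In this list 8 of 10 differences lay below 0, with a median of -0.17, and TUBB3, a neuronal tubulin, differed by -0.28 (unadjusted p = 0.0338). The gene that was called was the microtubule-associated MAP2, at 11.66, 11.80 and 11.68 in DLD-1Δα-Cat and at 10.96, 11.27 and 11.05 in DLD-1α-Cat. Its groups did not overlap (difference 0.62, limma adjusted p = 0.0240), and it passed in 1 of the 6 fits without an array, the one without replicate 2 of DLD-1α-Cat. Its call did not hold with the β-actin covariate either (0.49, adjusted p = 0.524), without moderation (adjusted p = 0.107) and with the probe set of largest spread (adjusted p = 0.127). All 6 measured heart muscle markers and all 9 fibroblast markers lay below the median, and 0 of either list were called; at an unadjusted p under 0.05 the counts were 0 and 2. The summed signal of the fibroblast list was 8.30 to 8.40 in DLD-1Δα-Cat and 8.21 to 8.81 in DLD-1α-Cat on the log2 scale. For the heart list it was 8.23 to 8.35 in DLD-1Δα-Cat and 8.14 to 8.70 in DLD-1α-Cat. The neuron list gave 13.65 to 13.77 in DLD-1Δα-Cat, against 13.75 to 13.88 in DLD-1α-Cat. Most of that sum is TUBB3, with a mean of 13.25 for DLD-1Δα-Cat against 13.53 for DLD-1α-Cat. MAP2, the next brightest, differed in the other direction. The neuron sum therefore reads mainly TUBB3 and not the list as a whole.

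No chromosomal neighbour of the members was called. Of the 50 tested genes that stand 5 to each side of the 5 members in RefSeq's gene order, 0 were called (limma), and 4 higher and 2 lower lay at an unadjusted p under 0.05, against 5.52% called and 20.8% at that unadjusted p over all genes. Around CTNNA1 on chromosome 5 the 10 neighbours differed by -0.20 to 0.19, none of them at an unadjusted p under 0.05, against -1.52 for CTNNA1. On chromosome 9, the 10 neighbours of CTNNAL1 differed by -0.22 to 0.61. The neighbours of CTNNA2 on chromosome 2 ran from -0.35 to 0.33, and on chromosome 10 those of CTNNA3 from -0.24 to 0.73 and those of VCL from -0.50 to 0.54. Highest beside CTNNAL1 was KLF4, a transcription factor of differentiated epithelia (0.61, limma adjusted p = 0.100). Of the members, 3 hold a tested gene inside their own borders: LRRTM2, a synaptic adhesion protein, lies in CTNNA1, its relative LRRTM1 in CTNNA2 and an uncharacterised LOC101928961 in CTNNA3. LRRTM2 was dim, at 3.26, 3.46 and 3.58 in DLD-1Δα-Cat and at 3.55, 4.10 and 3.54 in DLD-1α-Cat, and the groups overlapped (difference -0.30, limma adjusted p = 0.376). LRRTM1 differed by -0.26 (adjusted p = 0.223) and LOC101928961 by -0.11, both also dim. With the replicate number as a block, JMJD1C-AS1 near CTNNA3 and KLF4 were called as higher.

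**Figure D4:**
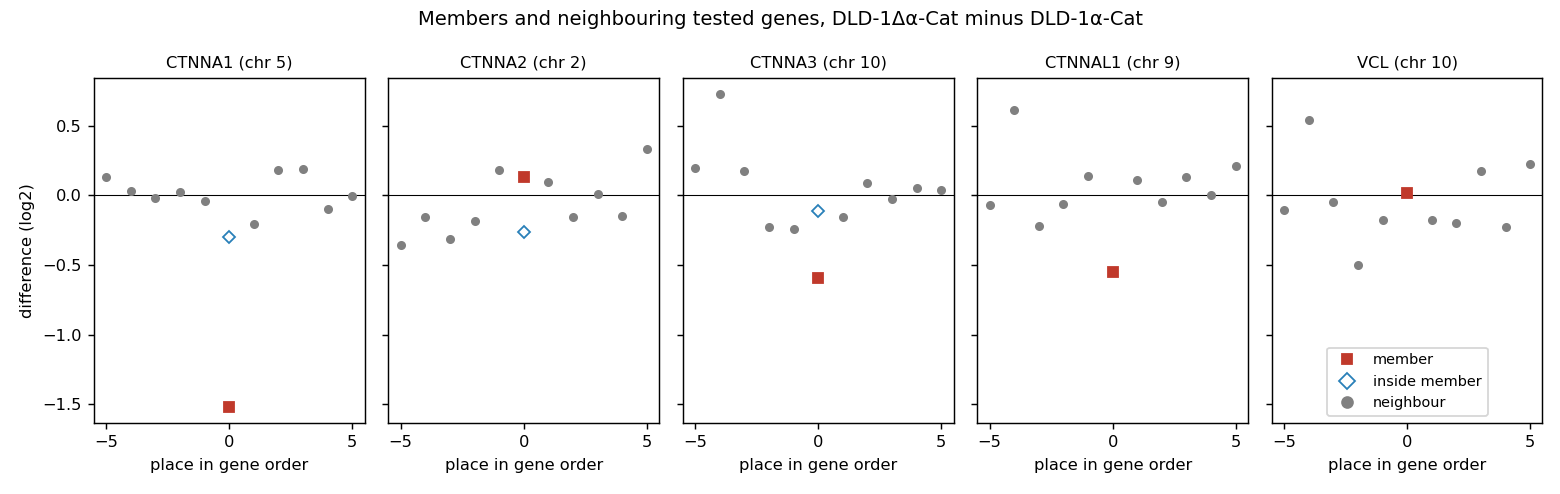
Difference (vertical axis, DLD-1Δα-Cat minus DLD-1α-Cat, log2) of each member (red square), of genes inside it (open diamond) and of the 5 nearest tested genes on each side (grey), by place in gene order. CTNNA1 and CTNNAL1 stand below all 10 of their neighbours; the CTNNA1 neighbours lie between -0.20 and 0.19.

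The genes whose profile over the 6 arrays was most like that of CTNNA1 were found by the root mean square difference between profiles, each centred on its own mean. SIPA1, a GTPase-activating protein for Rap, was closest at 0.0960, followed by PPP1R14D, an inhibitor of protein phosphatase 1, at 0.0975 and by the drug exporter ABCB1 at 0.112. The transcription factor NFIA followed at 0.127 and PLEKHB1 at 0.129. SIPA1 stood at 7.23, 7.12 and 6.99 in DLD-1Δα-Cat and at 8.74, 8.77 and 8.59 in DLD-1α-Cat. All 5 were lower in DLD-1Δα-Cat, by -1.71 to -1.47, which the choice by likeness fixes. For CTNNAL1 the closest were PPP1R3B-DT at 0.0217, FN3KRP at 0.0511, MCUB at 0.0520, KAAG1 at 0.0530 and POLD2, a subunit of DNA polymerase δ, at 0.0542. Their differences lay between -0.57 and -0.48; they too were chosen by their profile, so no test is given. Profiles of 6 arrays in 2 groups share the difference between the groups, so likeness over them is a description only.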

How the data were processed

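Biotin-labelled RNA of 6 samples was read on Affymetrix arrays. Per the submitters' processing notes, the authors used RMA in Affymetrix Expression Console, of unstated version, and the deposited values are log2 intensities. RMA brings all arrays to one distribution, so it hides any shift that all transcripts share. Medians of the 6 arrays ran from 6.12 to 6.15. Precision is limited by having only 3 arrays in each subclone.

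After 62 control probe sets were left out, 54613 remained. Of these, 41091 had 1 gene symbol in the annotation, 1801 had several, and 11721 had none and stay unnamed. By gene ID 41037 matched RefSeq (GRCh38.p14). Genes were read on the probe set with the highest mean. Both fits used limma 3.58.1 in R 4.3.3 (lmFit, eBayes, two-sided, Benjamini-Hochberg, threshold 0.05), 1 over 19775 genes and 1 over all probe sets, and were tested on simulated data. The members, lists and rules were chosen with earlier results of these data known. Named by rule were the members, up to 5 called genes per list (or the most different gene above the median of all genes), genes inside a member, called neighbours and the 5 genes most like CTNNA1 and CTNNAL1. Other genes named were chosen after their values were seen.

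Sample titles give both subclones the same replicate numbers. For numbers 1, 2 and 3, departures from the group mean correlated across genes at 0.225, 0.376 and 0.122 between subclones. All lie above 0.1, and those between different numbers ran from -0.317 to 0.0666. On that basis the numbers were treated as pairs only in the replicate block, from the data and not a stated design. The main fits, with their p-values and intervals, used no pairing. Alternatives were quantile normalization, median centring, no dim probe sets (mean below 6.12), other choices of probe set, other variance models, array weights, the replicate block, the β-actin ratio as a covariate and leaving out each array.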

Additional observations from a re-analysis of the deposited data

How the results depend on the processing

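Over genes, CTNNA1 and CTNNAL1 were both called with quantile normalization, median centring, array weights, the replicate block, a variance trend with robust estimation, the mean of the probe sets and without dim probe sets. With the β-actin ratio as a covariate 0 members were called by limma (2 at an unadjusted p under 0.05), with CTNNA1 at -1.56 and CTNNAL1 at -0.51. Without moderation, and with the probe set of largest spread, 1 member was called (CTNNA1), and CTNNAL1, at -0.55 in both, did not pass (adjusted p = 0.130 and 0.0617). Leaving out 1 array gave 1 to 2 called members, with CTNNA1 from -1.60 to -1.41 and called in all 6 runs, and CTNNAL1 from -0.63 to -0.46. Of the 13 probe sets, 0 were called with the covariate (4 at an unadjusted p under 0.05), 1 without moderation (the third brightest of CTNNA1) 3 with the replicate block, 3 to 4 without 1 array, 5 with array weights or with a trend and robust estimation, and 4 of the 5 that remained without dim probe sets. Neighbour counts were 2 with the mean of the probe sets (JMJD1C-AS1 higher, AP3M1 lower), 2 with the replicate block and 0 to 1 without 1 array (PLAU lower without replicate 1 and KLF4 higher without replicate 2 of DLD-1α-Cat). The 2 called linkage genes, NECTIN3 and FERMT2, were called in the paired fit, with mean probe sets and in all 6 runs without an array. The block changed no other call of the members, of these linkage lists or of MAP2. CTNNA2 and CTNNA3 fell out of the gene fit without dim probe sets, so that setting gives no value for them. The causes of the lost calls were not tested.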
